A study of Mus musculus with 7 samples.

Results

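Shox2 sites of the embryonic mouse palate were set against Pbx sites of the embryonic limb, both mapped by chromatin immunoprecipitation and sequencing (ChIP-seq) at E12.5 (embryonic day). The palate list held 15091 Shox2 positions, each 1 bp wide. The limb list held 33915 Pbx peaks with a median width of 897 bp (quartiles 698 and 1208 bp), which together covered 35.2 Mb. These 49006 sites are part of 82921 in the 3 lists used here, the third being 33915 Shox2 peaks of the limb. A palate position was called on Pbx when it lay inside a deposited Pbx peak. By that rule 2354 positions (15.6%) were on Pbx, in 2246 Pbx peaks (6.62% of all Pbx peaks).

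Tissue was freshly dissected from mouse embryos. The palate and limb Shox2 libraries came from Shox2-HA embryos and were precipitated with an antibody against the HA tag, so they report the tagged protein. The Pbx library came from embryonic limb and was precipitated with an antibody against Pbx, and the labels give no genotype for it. The labels do not say which Pbx proteins the antibody binds, how many embryos were pooled or which part of the palate or limb was taken. The series holds 7 libraries with 1 per group. Not analysed here were 4 of them: the E13.5 limb Shox2 ChIP, the E12.5 Shox2 ChIP from mixed limb and palate, the anti-HA ChIP from untagged Shox2+/+ limb and palate at E12.5, and the limb input at E12.5. No Pbx list from palate was analysed here, so tissue and factor differ together between the palate Shox2 and limb Pbx lists.

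Shox2 is a homeodomain transcription factor that acts in the mesenchyme of the anterior palate and of the proximal limb. Pbx proteins are homeodomain factors of the TALE class, which bind DNA with Meis and Prep proteins and with Hox and other homeodomain partners, and they are needed for both limb and craniofacial development. In ChIP-seq a peak is a stretch where precipitated fragments pile up, and a summit is the base where the pile is highest. The palate positions have the form of summits, although the files do not call them so. Bulk ChIP from a whole tissue pools its cells, so sites bound in different cells fall in the same list.

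Each site is given by its coordinates alone, without a height or score, so the depth of the libraries is unknown. With 1 library per group there was no test over samples, and no value below has a replicate error. Shares are given with 95% exact binomial (Clopper-Pearson) intervals and differences of shares with Newcombe intervals. They cover counting only and treat sites as independent, which neighbouring sites are not, so they are too narrow. For comparison the limb Shox2 peaks were reduced to their centres, so that both Shox2 lists are points. A centre is not a summit, and this difference between the lists stays in every comparison of limb and palate below.

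Palate Shox2 positions were concentrated at the middle of limb Pbx peaks. Within 100 bp of a Pbx centre they lay at 124.6 per Mb, against 11.2 per Mb at 5 to 20 kb from the same centres, a ratio of 11.1 (exact Poisson interval of the near count, 10.4 to 11.9). The ratio was 7.53 (6.92 to 8.17) at 100 to 200 bp and 3.09 (2.86 to 3.33) at 200 to 500 bp. By 500 to 1000 bp it was 1.17 (1.07 to 1.29). The concentration was thus nearly confined to the first 500 bp on either side of the Pbx centre. Farther out the density passed below the surrounding level, with ratios of 0.874 (0.809 to 0.943) at 1 to 2 kb and 0.933 (0.893 to 0.973) at 2 to 5 kb.

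Limb Shox2 centres, over the whole limb list, showed a like decay from a higher start. Their ratio was 25.6 (24.7 to 26.4) within 100 bp, 16.3 (15.6 to 17.01) at 100 to 200 bp and 6.50 (6.25 to 6.75) at 200 to 500 bp. It was still 1.97 (1.86 to 2.07) at 500 to 1000 bp and 1.17 (1.12 to 1.23) at 1 to 2 kb, where the palate ratio was below 1. Each of these intervals lay above the palate interval for the same distance.

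**Figure D1:**
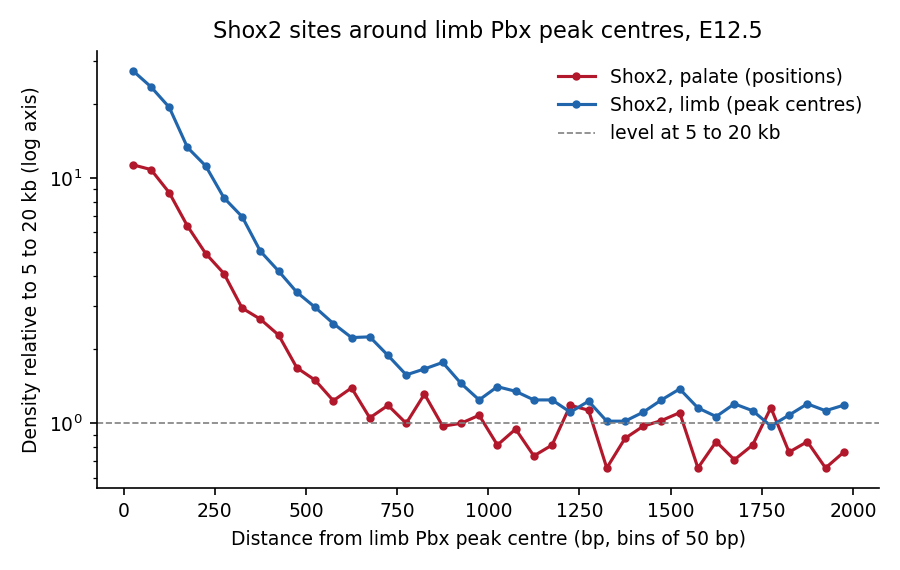
Density of palate Shox2 positions (red) and limb Shox2 peak centres (blue) by distance from limb Pbx peak centres in bins of 50 bp, each divided by its own density at 5 to 20 kb (dashed line), on a log axis and without error bars. Both curves are highest at the Pbx centre; the palate curve starts near 11.3 and meets the surrounding level before 1000 bp.

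Counted from the Shox2 side, 845 palate positions (5.60%, 5.24 to 5.98%) had a Pbx centre within 100 bp, and 2537 (16.8%, 16.2 to 17.4%) had one within 1000 bp. For limb Shox2 centres the shares were 10.04% and 27.6%. The difference, palate minus limb, was -4.44 percentage points (-4.92 to -3.95) at 100 bp and -10.8 percentage points (-11.6 to -10.05) at 1000 bp. For the whole lists the gap then closed with distance. At 20 kb both lists had 57.9% of their sites near a Pbx centre, a difference of 0.012 percentage points (-0.936 to 0.958). Beyond that distance the order turned. Within 50 kb lay 80.1% of palate positions and 75.8% of limb centres, a difference of 4.30 percentage points (3.51 to 5.08) toward palate. Where the order turned depended on the length of the limb list. With only its first 15091 peaks, the difference at 20 kb was -5.44 percentage points (-6.54 to -4.34) and that at 50 kb was 1.09 percentage points (0.183 to 2.004), so the turn came between 20 and 50 kb.

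Sites off Pbx were also compared. The 12737 palate positions outside every Pbx peak had a median distance of 19.96 kb to the nearest Pbx centre (95% interval of the median 19.4 to 20.5 kb), with quartiles of 7.99 and 47.4 kb. The 25140 limb Shox2 centres off Pbx had a median of 25.8 kb (25.2 to 26.4 kb), with quartiles of 8.87 and 68.4 kb. One palate position, on the mitochondrial sequence, had no Pbx peak on its sequence and no distance. Among the first 15091 limb peaks the median off Pbx was also 25.8 kb (24.9 to 26.8 kb). The lower median in palate did not extend to short range. Of the positions off Pbx, 3.89% (3.56 to 4.24%) in palate and 4.85% (4.59 to 5.13%) in limb lay within 1000 bp of a Pbx peak, and 3.95% (3.57 to 4.36%) among the first 15091 limb peaks. Palate Shox2 positions were less often on a limb Pbx peak than limb Shox2 centres, with a difference of -10.3 percentage points (-11.01 to -9.53). At equal length, with 5373 of the first 15091 limb centres on Pbx (35.6%), it was -20.005 percentage points (-20.96 to -19.04). The limb Shox2 list comes from the same tissue as the Pbx list, and the palate list does not. The part of that in the differences between palate and limb was not tested.

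**Figure D2:**
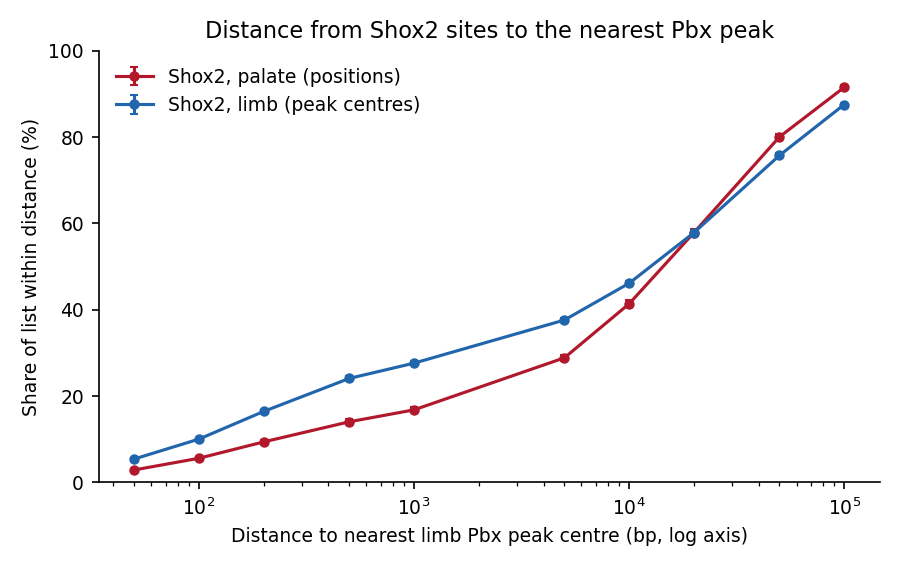
Share of palate Shox2 positions (red) and limb Shox2 peak centres (blue) whose nearest limb Pbx peak centre lies within the distance on the log axis, for the whole lists, with 95% exact binomial intervals as bars. The limb curve is above the palate curve up to 10 kb, both are at 57.9% at 20 kb, and the palate curve is above at 50 and 100 kb.

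Inside Pbx peaks, palate positions favoured the centre. Of the 2354 positions on Pbx, 1902 (80.8%, 79.1 to 82.4%) lay in the central 50% of the peak, where an even spread would put 50%. With the peak divided into 10 equal parts, the middle parts held 19.5% and 20.3% of the positions, and the outermost parts held 1.40% and 1.78%. The median distance to the centre of the peak was 151 bp (143 to 161 bp), with quartiles of 66.5 and 305 bp. Positions lay on both sides in near equal number, 1148 at lower and 1205 at higher coordinates than the centre.

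The edges of the peaks separated few positions. Within 100 bp inside an edge lay 56 palate positions, and within 100 bp outside an edge lay 45. The call of on or off Pbx thus turned on positions near an edge in few cases. Among limb Shox2 centres the counts were 280 inside and 176 outside.

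Limb Shox2 centres were placed within Pbx peaks much as palate positions were. Of 8775 limb centres on Pbx (25.9% of that list), 7073 (80.6%, 79.8 to 81.4%) lay in the central 50%. The difference, palate minus limb, was 0.195 percentage points (-1.64 to 1.95). The median distance to the Pbx centre was 138 bp (133.5 to 141 bp) for limb centres, and the Pbx peaks they occupied were narrower, with a median of 1117 bp against 1217 bp. Relative to the width of the peak, the median distance was 13.0% in palate and 12.7% in limb.

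The agreement of the central shares depended on how far down the limb list was read. Along the limb list the central share went from 90.3% (88.9 to 91.6%) in the first decile in file order to 71.7% (67.8 to 75.3%) in the last, a difference of 18.6 percentage points (14.8 to 22.7). Along the palate list it went from 83.8% (79.7 to 87.4%) to 77.4% (70.7 to 83.2%), a difference of 6.36 percentage points whose interval (-0.417 to 13.7) includes 0. Between the first 50% and the last 50% of the palate list the difference was 4.34 percentage points (1.11 to 7.63). When only the first 15091 limb peaks were kept, as many as the palate list holds, the limb central share was 85.3%. The difference, palate minus limb, was then -4.48 percentage points (-6.36 to -2.66). The whole lists and the lists of equal length thus gave different answers. The files do not state that their order is a ranking.

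**Figure D3:**
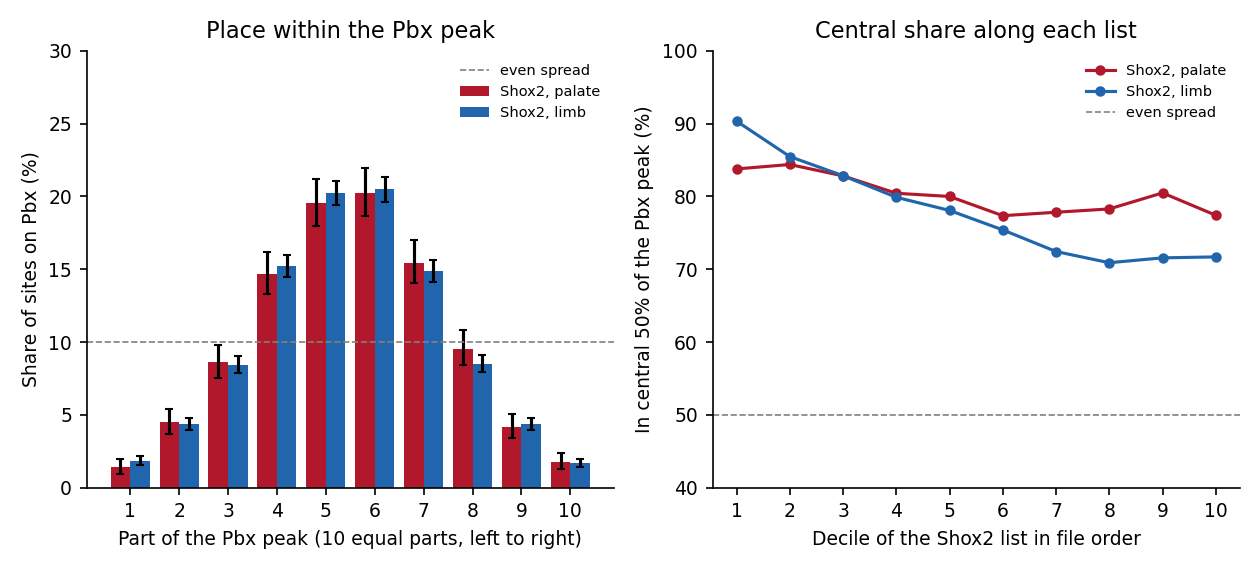
Left, share of Shox2 sites on Pbx that fall in each of 10 equal parts of the Pbx peak for palate (red) and limb (blue), with 95% exact binomial intervals; right, share in the central 50% of the peak by decile of each Shox2 list in file order, without error bars. The dashed lines mark an even spread, 10% and 50%; in the left panel the intervals of both tissues overlap in every part, and the limb line on the right goes from 90.3% to 71.7%.

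The palate positions nearest the top of the file were most often on Pbx. In the first decile 376 of 1510 positions (24.9%, 22.7 to 27.2%) were on Pbx, in the second 19.9%, in the third 17.4% and in the fourth 15.2%. From the fifth decile to the last the share stayed between 11.6% and 14.05%, with 12.3% (10.7 to 14.1%) in the last. The difference between the first and the last decile was 12.6 percentage points (9.83 to 15.3). Nearly all of it lay in the upper part of the list, and the lower deciles had overlapping intervals.

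The limb list had a steeper slope, from 55.5% in its first decile to 17.0% in its last, a difference of 38.6 percentage points (36.4 to 40.6). Palate positions within 100 bp of a Pbx centre showed the same course in palate as those anywhere in a peak, with 10.1% in the first decile, 4.57% in the fifth and 4.24% in the last.

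Place in the palate list was hardly related to which Pbx peak was met. Across the 2354 positions on Pbx, the Spearman correlation of the palate line number was 0.03 with the line number of the Pbx peak, 0.03 with its width and 0.07 with the distance to its centre. These are descriptions across sites of the same pair of lists. The median width of the Pbx peaks met was 1140 bp in the first decile of the palate list and 1330 bp in the last.

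Palate positions that also lay inside a limb Shox2 peak were more often on Pbx in each decile of the palate list. In the first decile 208 of 490 such positions (42.4%, 38.03 to 46.96%) were on Pbx, against 168 of 1020 (16.5%, 14.2 to 18.9%) of those outside limb Shox2 peaks. In the last decile the shares were 30 of 89 (33.7%, 24.03 to 44.5%) and 156 of 1420 (10.99%, 9.41 to 12.7%). Between the deciles, the share of positions inside a limb Shox2 peak itself went from 32.5% to 5.90%.

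With the decile of the palate list held fixed, the Mantel-Haenszel odds ratio for lying on Pbx, inside against outside a limb Shox2 peak, was 3.77 (3.39 to 4.19), compared with 4.13 (3.73 to 4.58) without strata. For lying within 100 bp of a Pbx centre it was 3.49 (2.99 to 4.08) within deciles. The limb Shox2 and limb Pbx lists share a tissue, and the part of that in the odds ratio was not tested.

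**Figure D4:**
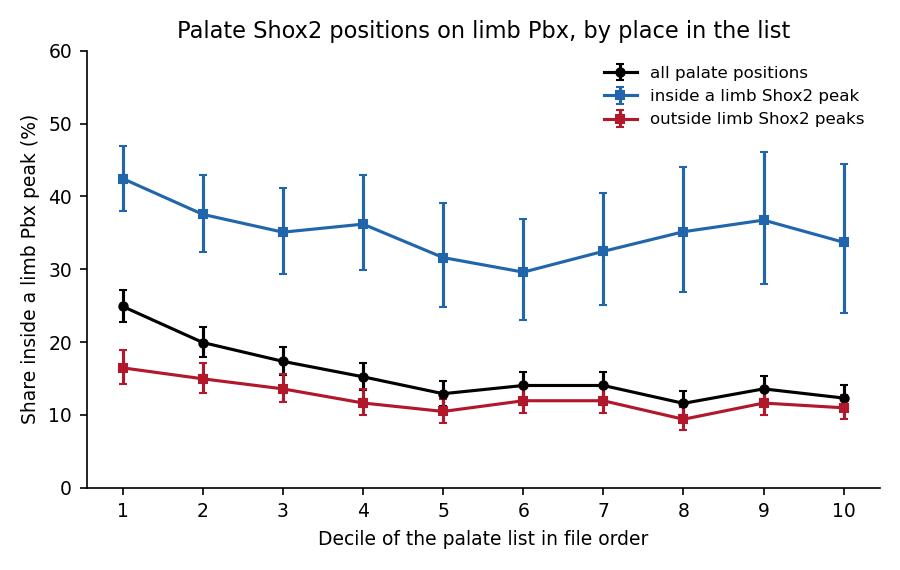
Share of palate Shox2 positions inside a limb Pbx peak by decile of the palate list in file order, for all positions (black), those inside a limb Shox2 peak (blue) and those outside (red), with 95% exact binomial intervals. The black line goes from 24.9% to 12.3%, and the blue line is above the red line in every decile.

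Positions in a limb Shox2 peak were also more central within the Pbx peak. Of the 782 positions on Pbx and inside a limb Shox2 peak, 681 (87.1%, 84.5 to 89.4%) lay in the central 50%, with a median of 136.5 bp to the Pbx centre. Of the 1572 on Pbx and outside limb Shox2 peaks, 1221 (77.7%, 75.5 to 79.7%) did, with a median of 162 bp. The difference was 9.41 percentage points (6.19 to 12.45). The odds ratio was 1.94 (1.52 to 2.46) without strata, 1.96 (1.54 to 2.50) within deciles of Pbx peak width and 1.87 (1.46 to 2.39) within deciles of the palate list.

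In 995 Pbx peaks a palate position and a limb Shox2 centre were found together. There, 1055 palate positions had a median distance of 102.5 bp (quartiles 43 and 208 bp) to the nearest limb Shox2 centre in the same peak and of 152.5 bp to the Pbx centre. In the 799 of these peaks with exactly 1 palate position and 1 limb centre, the median distances were 89.5 bp and 129 bp, and the palate position was nearer to the limb Shox2 centre than to the Pbx centre in 458 (57.3%, 53.8 to 60.8%). Both Shox2 sites lay on the same side of the Pbx centre in 572 of these 799 peaks (71.6%). The limb Shox2 centre itself was at a median of 126.5 bp from the Pbx centre. In these peaks the medians put the Shox2 sites of palate and limb closer to each other than either was to the middle of the Pbx peak.

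Seen from the Pbx side, holding a palate position anywhere in the deposited peak went with peak width more than with place in the Pbx list. Within 100 bp of the centre the odds ratios for width and for list place, given below, had overlapping intervals. Neither was shown there to be the larger. The share was 1.47% (1.10 to 1.94%) in the narrowest decile of Pbx peaks (235 to 562 bp), 6.25% in the sixth (897 to 992 bp) and 17.05% (15.8 to 18.4%) in the widest (1662 to 15052 bp). The difference between the widest and the narrowest decile was 15.6 percentage points (14.3 to 16.9). A wider peak covers more sequence, so part of this follows from extent. Per Mb of peak, palate positions numbered 30.6 in the narrowest decile, 67.9 in the sixth and 82.1 in the widest. The density per Mb thus also went up with width, but less steeply, and it changed little over the widest deciles (75.4, 78.8 and 82.1 per Mb).

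When every Pbx peak was reduced to 200 bp around its centre, the course was no longer monotonic. A palate position lay within 100 bp of the centre in 0.973% (0.671 to 1.36%) of the narrowest peaks, in 3.57% (2.97 to 4.25%) of the sixth decile and in 2.62% (2.11 to 3.22%) of the widest. The sixth decile was above the widest by 0.944 percentage points (0.118 to 1.78), and it was named because it had the highest value. The limb Shox2 list gave 5.84%, 13.51% and 7.61% in the same deciles, with its highest value, 14.3%, in the seventh. In both tissues the highest value thus fell in peaks of intermediate width (897 to 1123 bp).

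In the widest peaks, palate positions were farther from the centre. The median distance was 64.75 bp in the narrowest decile, 87.5 bp in the sixth and 362.5 bp in the widest. The central 50% held 78.0% (64.04 to 88.5%), 88.02% (82.9 to 92.02%) and 72.6% (68.95 to 76.03%) of the positions on Pbx in these deciles. Limb Shox2 centres had 73.4% in the widest decile, at a median of 343 bp. The widest peaks were in this respect the least centred in both tissues.

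Along the Pbx list in file order, 12.53% (11.4 to 13.7%) of the first decile and 3.69% (3.08 to 4.38%) of the last held a palate position, a difference of 8.84 percentage points (7.57 to 10.1). Pbx peaks narrow down the list (Spearman correlation of line number with width -0.51 across all peaks). The odds ratio of the first against the last 50% of the list was 2.02 (1.84 to 2.21) without strata and 1.15 (1.04 to 1.27) within deciles of width. The odds ratio of the wider against the narrower 50% of peaks was 3.42 (3.10 to 3.78) without strata and 2.82 (2.53 to 3.14) within deciles of the list. At 200 bp around the centre, the difference between first and last decile was 2.30 percentage points (1.52 to 3.10) along the list, and that between widest and narrowest was 1.65 (1.03 to 2.31). The odds ratios there were 1.35 (1.16 to 1.57) for list place within width and 1.45 (1.24 to 1.69) for width within list place.

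Width and list place were also crossed, over the deposited extent. Among the widest quintile of Pbx peaks, 15.1% held a palate position in the first quintile of the list and 11.005% in the last, with 14.4% in the fourth. Among the narrowest quintile the shares were 2.42% (0.664 to 6.09%) in the first quintile of the list, from 165 peaks, and 1.99% (1.50 to 2.58%) in the last, from 2765 peaks. Within 100 bp of the centre, the widest quintile had 3.54% in the first quintile of the list and 1.91% in the last, and the narrowest had 1.82% and 1.23%.

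**Figure D5:**
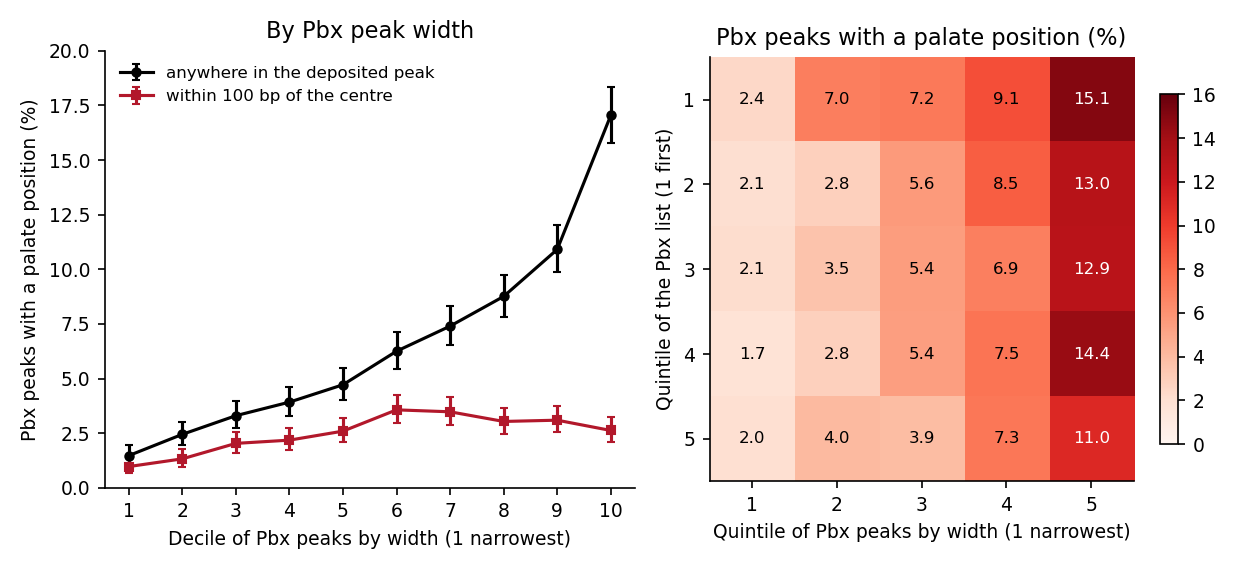
Left, share of Pbx peaks that hold a palate Shox2 position by decile of Pbx peak width, anywhere in the deposited peak (black) and within 100 bp of its centre (red), with 95% exact binomial intervals; right, the share anywhere in the peak by quintile of the Pbx list and quintile of width. The black line goes from 1.47% to 17.05%, the red line is highest at 3.57% in the sixth decile, and on the right the columns differ more than the rows.

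Most Pbx peaks that met the palate list held 1 position. Of the 2246, 2141 held 1, 102 held 2 and 3 held 3. The peaks with 2 or more were wider, with a median of 1715 bp against 1176 bp for those with 1 and 883 bp for those with none. Neighbouring palate positions in the same Pbx peak were a median of 516.5 bp apart (quartiles 409.5 and 767 bp, 108 pairs), and the closest were 145 bp apart. Limb Shox2 centres were present in 56.2% of the peaks with 2 or more palate positions, in 43.7% of those with 1 and in 21.5% of those with none. The share over all Pbx peaks was 23.0%, with 8.20% in the narrowest decile of width and 37.5% in the widest. The part of width in the shares by number of positions was not tested.

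Pbx peaks can be divided by which Shox2 list they met. A palate position without a limb Shox2 centre was found in 1251 peaks (55.7% of those with a palate position), of median width 1128 bp. A limb Shox2 centre was present in 44.3% of the peaks with a palate position, against 23.0% of all Pbx peaks. The 995 peaks with both had a median width of 1284 bp, the 6812 with a limb centre alone 1050 bp, and the 24857 with neither 842 bp. Peaks with both stood highest in the Pbx list, 72.9% of them in its first 50%. For palate alone the figure was 60.3%, for limb alone 66.4% and for neither 44.1%. Pbx peaks of 2000 bp or more made up 15.5% of the peaks with a palate position and 4.54% of those without. A wider peak covers more sequence, so part of these differences in width follows from extent. The part of width in the other shares by class was not tested.

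The overlap was spread over the genome. On the autosomes the share of palate positions on Pbx ranged from 12.8% on chromosome 15 (10.2 to 15.7%) to 19.3% on chromosome 19 (15.6 to 23.4%), and these intervals overlap. On X it was 17 of 128 positions (13.3%, 7.93 to 20.4%). The median distance to the Pbx centre was 129 bp on chromosome 15 and 201.5 bp on chromosome 16, the ends of the range over autosomes, and 59 bp on X, where it rests on 17 positions.

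In windows of 1 Mb (mm9), 1145 of the 2448 windows with a palate position or a Pbx peak held a palate position on Pbx, and none held more than 13. The 10 windows with the most held 103 (4.38% of all positions on Pbx). They had 268 palate positions, of which 38.4% were on Pbx, but they were chosen by their count of positions on Pbx, so a high share follows from the choice. No annotation of mm9 was used here, so the windows are given by position without gene names.

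Chromosome 17 from 86 to 87 Mb held 13 positions on Pbx among 29 palate positions, in 13 of its 54 Pbx peaks, at a median of 100.5 bp from the Pbx centres. Chromosome 7 from 143 to 144 Mb also held 13, among 28 palate positions and in 13 of 56 Pbx peaks, at a median of 271.5 bp. The largest share of the 10 windows was on chromosome 13 from 51 to 52 Mb, with 10 of 15 palate positions on Pbx (66.7%), in 9 of 24 Pbx peaks. Limb Shox2 was on Pbx there in 11 of 17 cases.

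Other windows among the 10 differed in how much limb Shox2 they held. Chromosome 2 from 172 to 173 Mb had 9 of 29 palate positions on Pbx but only 6 limb Shox2 centres, 3 of them on Pbx, and 1 of the 9 palate positions lay in a limb Shox2 peak. Chromosome 18 from 55 to 56 Mb had 10 of 22 palate positions on Pbx and 75 limb Shox2 centres, 32 of them on Pbx, and 7 of the 10 palate positions lay in a limb Shox2 peak. The windows were chosen by their count of palate positions on Pbx, so similar counts in windows poor and rich in limb Shox2 follow from the choice. Of the remaining 5 windows, the one on chromosome 5 (132 to 133 Mb) had 10 of 34 palate positions on Pbx. On chromosome 9 there were 10 of 28 between 61 and 62 Mb and 9 of 32 between 41 and 42 Mb. The window on chromosome 12 (27 to 28 Mb) had 10 of 32, and that on chromosome 19 (56 to 57 Mb) had 9 of 19. Chromosome 12 had the fewest Pbx peaks of these 5 windows, 26, of which 8 held a palate position, and chromosome 9 from 61 to 62 Mb had the most, 61, of which 9 did.

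The first 10 positions of the palate list on Pbx came within its first 33 lines. The first was chromosome 5 position 93690182, 27 bp from the centre of a Pbx peak of 797 bp (93689811 to 93690607). The second was chromosome 2 position 45082951, 259.5 bp from the centre of a Pbx peak of 2032 bp (45081676 to 45083707). The third was chromosome 14 position 24205184, 108.5 bp from the centre of a Pbx peak of 900 bp (24204843 to 24205742). Of the 10, 9 lay in the central 50% of the Pbx peak and 9 inside a limb Shox2 peak. Among all 2354 positions on Pbx, 80.8% were central and 782 lay inside a limb Shox2 peak. For the 376 in the first decile of the palate list, these values were 83.8% and 208. Distances of the 10 to the Pbx centre ranged from 27 to 535.5 bp with a median of 108 bp. The Pbx peaks these 10 met stood anywhere from line 1489 to line 33342 of the 33915 lines of the Pbx list.

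Of all 2354 palate positions on Pbx, 1572 lay outside limb Shox2 peaks, as did 12941 of all 15091 palate positions. On Pbx were 12.1% of the positions outside limb Shox2 peaks and 36.4% of those inside. All positions in the 3 Pbx peaks with 3 palate positions lay outside limb Shox2 peaks. The one on chromosome 1 (94076728 to 94078115, 1388 bp) held positions 102, 166 and 326 bp from its centre and no limb Shox2 centre. The one on chromosome 17 (8559680 to 8561963, 2284 bp) held positions 103, 798 and 918 bp from its centre, again without a limb Shox2 centre. The one on chromosome 4 (84102185 to 84104212, 2028 bp) held positions 499, 598 and 749 bp from its centre and 1 limb Shox2 centre. Of the peaks with 2 positions, the one highest in the Pbx list (line 265) was on chromosome 4 (54481976 to 54484840, 2865 bp), with positions 735 and 1028 bp from its centre, both in a limb Shox2 peak. The next (line 324) was on chromosome 9 (52748677 to 52750028, 1352 bp), with positions 138.5 and 615.5 bp from its centre, the first of them in a limb Shox2 peak.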

How the data were processed

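The submitters' processing notes name Bowtie, MACS2 and the build mm9. Their versions and settings, the cut-off of each list and the order of its lines are not stated there. The deposited files hold positions only, so the authors' peak scores and depths were not analysed here, and all coordinates are in mm9, counted from 1. The list of co-occupied limb regions, without palate positions, was not used. No genome or annotation of mm9 was used, so the planned gene lists, sequences and motifs were left out.

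Overlap was containment of the point. Distances are to the midpoint of the Pbx peak. Deciles follow file order, or width with ties in file order. Densities count all pairs of a Pbx centre and a Shox2 site up to 20 kb apart. Odds ratios are Mantel-Haenszel, with intervals that treat sites as independent. No test over samples could be made. Named sites were the first 10 palate positions on Pbx, the 5 Pbx peaks with the most positions (ties to the earlier line) and the 10 windows of 1 Mb with the most positions on Pbx. Members, comparisons and alternatives were chosen with earlier results of these data known. The code was tested on simulated data. Software was Python 3.11.15 with pandas 2.3.3, NumPy 2.4.6, matplotlib 3.10.9, statsmodels 0.14.6 and SciPy 1.17.1.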

Additional observations from a re-analysis of the deposited data

How the results depend on the processing

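Of 29 alternatives, 13 left their value inside the interval of the value reported and 14 moved it outside without a change of direction. The other 2 changed the sign of the value, each from a difference whose interval includes 0. Of the 29, 26 were planned, with earlier results of these data already known. The remaining 3 were added later, after seeing the data, all with only the first 15091 limb peaks kept. For the share on Pbx, the difference palate minus limb went from -10.3 to -20.005 percentage points. It went from 0.012 to -5.44 within 20 kb of a Pbx centre and from 4.30 to 1.09 within 50 kb. The share of palate positions on Pbx, 15.6%, became 12.6% for the central 50% of Pbx peaks, 10.4% with the first 50% of the Pbx list, 18.1% with the first 50% of the palate list, 5.60% within 100 bp of a Pbx centre and 13.0% without Pbx peaks of 2000 bp or more. These use less of a list or less of each peak, so all but the cut of the palate list could only lower the share. The median distance of 151 bp became 142.5 bp with the first 50% of the palate list and 129 bp without the wide peaks. The central share of 80.8% became 82.6% and 83.2% in the same settings. The difference between the first and last decile of the palate list, 12.6 percentage points, was 5.89 within 100 bp of a Pbx centre. With every Pbx peak set to 200 bp, the difference along the Pbx list went from 8.84 to 2.30 percentage points and that between the widest and narrowest peaks from 15.6 to 1.65. The difference in central share, palate minus limb, went from 0.195 to -4.48 percentage points when only the first 15091 limb peaks were kept. Its cause was not tested. No paired analysis was possible because there are no replicates, and leaving out a library would empty its group. Without depth, sites that were unbound and sites under a cut-off look the same.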
